A study of Mus musculus and Homo sapiens with 18 samples.

Results

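The genes described here are 9 genes of the lens fiber cell membrane and of its beaded filament: *Mip*, *Bfsp1*, *Bfsp2*, *Gja1*, *Gja3*, *Lim2*, *Lgsn*, *Aqp5* and *Dnase2b*. They were picked by symbol for their known place in the lens, with earlier results of these data known. All 9 had an entry in the lens and NLPC count tables and, as human genes, in the HLE-B3 table. In that order, 12201, 20371 and 19049 genes in all had enough counts to be tested. RNA-seq covered 18 libraries in 6 groups of 3. Lenses came from *Nestin-CreERT2; QkL/L* mice (*Qk*-iCKO) and from *Nestin-CreERT2; QkL/+* mice (Ctrl) at P17-19, and both groups had received tamoxifen on P7 and P8, so the Ctrl lenses carried the same Cre and 1 floxed allele. NLPCs are lens progenitor-like cells made in culture from neural stem cells of *Nestin-CreERT2; QkL/L* pups, with Noggin first and bFGF, BMP4 and BMP7 second; 4-hydroxytamoxifen induced the deletion in the *Qk-/-* group and the other group is labelled wild type (WT). HLE-B3 is an immortalized human lens epithelial line, compared as WT and as CRISPR-Cas9 *QKI* KO cells that were enriched by puromycin after lentiviral delivery, with no cloning step stated. Nestin drives Cre in neural and other ectodermal cells as well as in lens epithelium, so the lens deletion depends on which cells had Nestin when tamoxifen was given.

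A lens fiber cell elongates from an epithelial cell, fills with crystallins, loses its nucleus and organelles and then keeps its membrane proteins for life. *Mip* (aquaporin 0) is the main water channel and an adhesion protein of fiber membranes, *Lim2* (MP20) another abundant fiber membrane protein, and *Gja3* (Cx46) a gap junction protein of fibers, while *Gja1* (Cx43) is the connexin of the lens epithelium and *Aqp5* a water channel of epithelium and fibers. *Bfsp1* (filensin) and *Bfsp2* (phakinin) co-assemble into the beaded filament, an intermediate filament found in fibers, and *Lgsn* (lengsin) is a fiber protein that binds such filaments. *Dnase2b* encodes the DNase that breaks down fiber cell DNA when the nucleus is lost.

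Total counts ran between 10319320 and 16425331 for lens libraries, between 28154202 and 68243360 for NLPC and between 69190864 and 81384471 for HLE-B3. Of the lens libraries, *Qk*-iCKO replicate 1 stood apart, with a TMM scaling factor of 1.47 against 0.889 to 0.962 in the other 5 and with 56.3% of its counts in crystallins against 64.7% to 66.9%. *Xist* had 773 to 996 counts in the Ctrl lenses, 2345 in *Qk*-iCKO replicate 1, and 1 and 4 in *Qk*-iCKO replicates 2 and 3, where 4 Y-linked genes summed to 1051 and 930 counts, so sex was not balanced between the lens groups. *QKI* was lower in *QKI* KO HLE-B3 (log2 fold change −1.34, edgeR adjusted p = 1.851e-11). The *Qk* count was not called lower in *Qk*-iCKO lenses (−0.31, adjusted p = 0.2001), and in the NLPC libraries labelled *Qk-/-* it was higher (0.41, adjusted p = 0.02695). Only exon 2 is flanked by loxP sites, so a count over the whole gene is a weak check of these labels. The NLPC libraries held few lens fiber transcripts: 16 crystallins summed to 61.9 to 66.1 CPM (counts scaled to a common library total) in WT, most of it *Cryab*. The 10 lens epithelial markers summed to 1643 to 1707 CPM, most of it *Sparc* (a mean of 71470 normalized read counts), with *Pax6* at 4297 and *Foxe3* at 0 in all 3 WT libraries, and 7 astrocyte markers summed to 5744 to 6423 CPM. WT HLE-B3 had *PAX6* (10799 normalized read counts) and *CRYAB* (39231) and no count of *CRYAA*.

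The upstream sequences of *Mip*, *Bfsp1* and *Dnase2b* are shown because these genes parted in the lens: *Mip*, the most abundant of the 9, fell in *Qk*-iCKO lenses, and the nearly as abundant *Bfsp1* and the late fiber gene *Dnase2b* were not called. Each is the 250 bases before the RefSeq start (GRCm38.p6), 5′ to 3′ on the strand of the gene. *Mip* is read from chr10:128225560-128225809, plus strand, *Bfsp1* from chr2:143863174-143863423, minus strand, and *Dnase2b* from chr3:146615599-146615848, minus strand. Capitals mark matches, on either strand, to 5 motifs whose letters are given with their counts after the sequences.
Mip: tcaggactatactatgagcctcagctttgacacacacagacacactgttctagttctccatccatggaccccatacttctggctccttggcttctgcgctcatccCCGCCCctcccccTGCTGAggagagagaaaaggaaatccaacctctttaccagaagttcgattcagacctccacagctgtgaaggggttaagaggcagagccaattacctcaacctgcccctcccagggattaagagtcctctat
Bfsp1: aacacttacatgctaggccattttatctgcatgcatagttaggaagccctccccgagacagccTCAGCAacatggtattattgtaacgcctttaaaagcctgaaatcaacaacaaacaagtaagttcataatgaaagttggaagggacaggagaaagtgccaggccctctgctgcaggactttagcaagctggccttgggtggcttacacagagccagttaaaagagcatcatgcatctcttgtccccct
Dnase2b: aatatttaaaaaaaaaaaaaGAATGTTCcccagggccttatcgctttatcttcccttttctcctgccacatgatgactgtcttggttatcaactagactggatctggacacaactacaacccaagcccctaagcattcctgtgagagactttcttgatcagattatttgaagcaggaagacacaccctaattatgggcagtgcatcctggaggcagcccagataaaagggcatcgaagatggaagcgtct

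All 9 genes had an entry in the RefSeq promoter table, *Gja3* with 2, which gave 10 windows of 250 bases before to 50 after a start. The Maf half-site, searched as TGCTGA, was found in 5 of the 10 windows, those of *Bfsp1*, *Gja1*, *Lgsn*, *Lim2* and *Mip*, against 19.5% of all 32851 windows. The TATA box, TATAAA, was found in 3 windows (*Gja3*, *Lgsn* and *Mip*) against 13.6%. The Sp site, GGGCGG, was found in 3 (*Aqp5*, *Gja3* and *Mip*) against 35.7%. In *Mip* the TATAAA crosses the RefSeq start and begins 31 bases before the gene start of GENCODE M21, so it is only partly in the printed run. The heat shock element, GAANNTTC, was in 1 window, that of *Dnase2b* (7.86% of all). The sterol regulatory element, TCACNCCAC, was in 0 of 10 (1.24% of all). All motifs were searched on both strands, and none contains another. The *Mip* and *Aqp5* windows were unlike in base composition, at 53.3% and 79.7% GC against a median of 52.7%, and 246 of the 250 *Aqp5* bases lie inside exons of GENCODE M21, so that sequence is not printed. A match describes letters only and is not shown to be a site. In GENCODE M21 *Mip* spans chr10:128225838-128231812 (plus strand) and *Aqp5* chr15:99590782-99594829 (plus strand).

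In Ctrl lenses 8 of the 9 genes were expressed and together they took 3.04% to 3.29% of all counts. In CPM per kilobase of exon, *Mip* stood highest at 4646 ± 456.5 (SD, n = 3), rank 18 of the 44145 genes with a length. *Bfsp2* (3508 ± 3.74), *Lgsn* (3455 ± 545.7) and *Bfsp1* (3284 ± 229.4) followed at ranks 20 to 22. The ranges of *Bfsp2*, *Lgsn* and *Bfsp1* overlapped, so these 3 are not separated by their spread, while the lowest *Mip* library (4119) was above the highest of them (4062, *Lgsn*). *Gja3* was next at 165 ± 6.74, then *Dnase2b* at 86.7 ± 7.72, *Aqp5* at 20.7 ± 1.69 and *Gja1* at 4.29 ± 1.08, with no overlap between neighbors. The epithelial connexin was thus the lowest of the 8 in whole lens on this scale. In CPM without lengths its range, 31.4 to 52.4, overlapped that of *Aqp5*, 50.8 to 58.9. *Lim2* was listed at 0, 1 and 0 counts in Ctrl and at 0 in all 3 *Qk*-iCKO libraries. It is known as an abundant fiber gene, so this may be a failed count, and *Lim2* is not read as absent from these lenses. The cause was not tested.

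**Figure D1:**
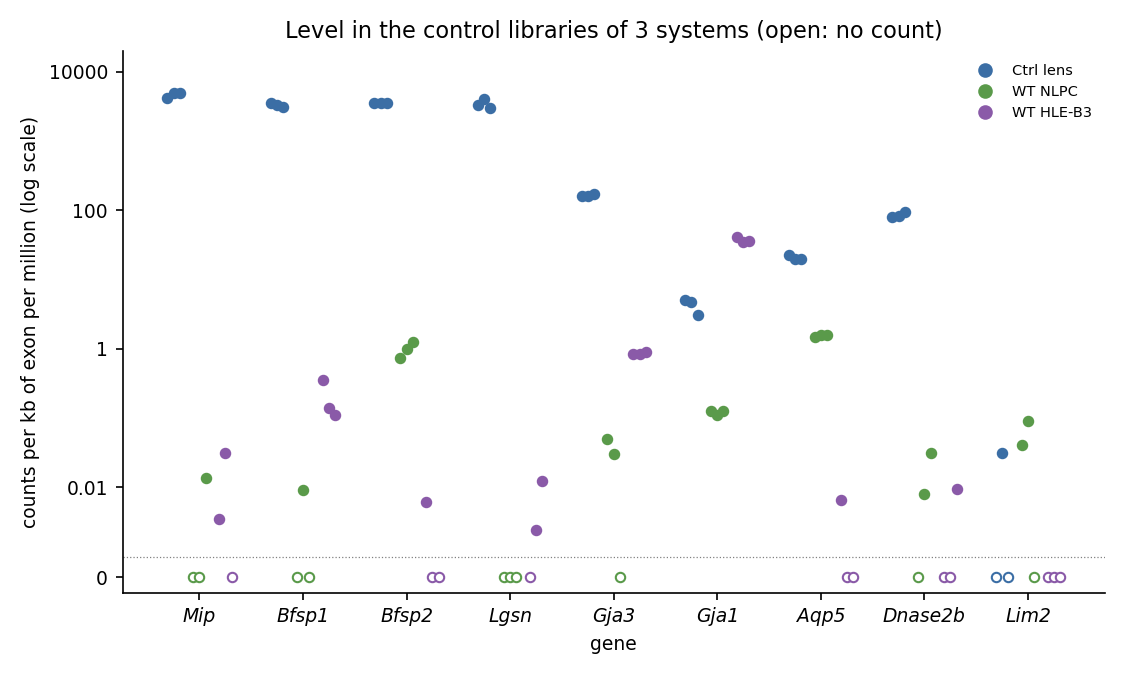
CPM per kilobase of exon (log axis) of the 9 genes in the control libraries of 3 systems, 1 point per library, with open points on the line marked 0 where a library had no count. *Mip*, *Bfsp1*, *Bfsp2* and *Lgsn* lay between 3004 and 4923 in the lens and at or under 1.23 in the NLPCs and HLE-B3. On this scale *Gja1* was the one gene of the 8 expressed in lens that was higher in HLE-B3 than in the lens. With crystallins left out of the totals *Gja1* was at 12.3 in the lens and 37.1 in HLE-B3. Its exon length was 10257 bases in mouse and 3395 in human, so the size of this gap depends on the scale.

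The control levels of the culture systems were far from those of the lens. All 8 genes that could be tested were higher in Ctrl lens than in WT NLPC at an adjusted p under 0.05 (edgeR), where 34.7% of the genes tested were; system, counting pipeline and sequencing run cannot be told apart in this comparison. *Mip*, *Bfsp1*, *Gja3*, *Lgsn* and *Dnase2b* passed the low-count filter through the lens alone, so they had to differ, and only *Aqp5*, *Gja1* and *Bfsp2* had at least 10 counts in every library of both groups. The smallest gaps in the ratio of summed CPM were 13.4-fold for *Aqp5* (95% interval 12.3 to 14.6, counting error only) and 34.4-fold for *Gja1* (30 to 39.7). These ratios are of all counts, and crystallins take most of the lens counts: with TMM factors the edgeR difference was 5.81 (SE 0.12) on the log2 scale for *Aqp5* and 7.19 (SE 0.20) for *Gja1*, and with crystallins left out of the totals *Aqp5* was at 59.4 CPM per kilobase in lens against 1.54 in NLPC and *Gja1* at 12.3 against 0.121. The intervals leave out this choice of scale. *Bfsp2* was 3569-fold higher (3188 to 4007) and *Gja3* 6347-fold (3782 to 11610). *Mip*, *Bfsp1* and *Lgsn* had 2, 1 and 0 counts over the 3 WT NLPC libraries. For *Mip* the ratio was 909200 (251700 to 7508000), and for *Lgsn*, with no NLPC count, only its lower 95% limit, 328100, can be given. Per kilobase, the highest of the 9 in WT NLPC were *Aqp5* (1.54 ± 0.0654) and *Bfsp2* (0.984 ± 0.249), followed by *Gja1* (0.121 ± 0.00828).

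In WT HLE-B3 the order of the connexins was the opposite of that in the lens. *GJA1* was at 37.1 ± 3.05 CPM per kilobase, rank 911 of 59899 genes with a length, and *GJA3* at 0.860 ± 0.0214. *BFSP1* was at 0.199 ± 0.131, with 26 to 96 counts. The other 6 genes, *MIP*, *BFSP2*, *LIM2*, *LGSN*, *AQP5* and *DNASE2B*, had 0 to 8 counts in every WT library. The line therefore had the epithelial connexin and hardly any of the fiber genes.

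Deletion against control in the lens asked whether loss of *Qk* altered fiber gene transcripts. *Mip* and *Aqp5*, the water channels, fell in *Qk*-iCKO lenses, and the beaded filament genes, *Lgsn*, the connexins and *Dnase2b* did not pass the test. Of the 8 genes tested, 2 were lower at an adjusted p under 0.05 (edgeR quasi-likelihood test), where 3.88% of the 12201 genes tested were lower. None was higher, where 8.38% were; at an unadjusted p under 0.05, 3 were lower and 0 higher, and DESeq2 called 3 lower. The median log2 fold change of the 8 was −0.37 against 0.0064 over all genes tested. Because the genes were chosen with earlier results of these data known, these comparisons with all genes only describe the set. Over all genes tested, 1023 were higher and 473 lower, and with scaling to total counts alone the counts became 768 and 118.

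*Mip* had 124215, 139000 and 150608 normalized read counts in the Ctrl lenses and 24013, 62809 and 41130 in the *Qk*-iCKO lenses. Every *Qk*-iCKO library was under every Ctrl library, with *Qk*-iCKO replicate 1 the lowest. The log2 fold change was −1.69 (SE 0.37, edgeR adjusted p = 0.02589), or 0.309 of the Ctrl level. Without any one of the Ctrl libraries, or without *Qk*-iCKO replicate 3, the fold change stayed between −1.63 and −1.77 but the adjusted p rose to between 0.05916 and 0.09786, so the call needs all of those 4 libraries. Without *Qk*-iCKO replicate 1, which stood apart, it was −1.41 (adjusted p = 0.008549). The *Qk*-iCKO lens with *Xist* counts had 24013 and those with Y-linked counts had 62809 and 41130; no Ctrl lens had Y-linked counts above 3, and the part of sex was not tested. *Gm26847*, a noncoding RNA gene on the other strand across the 3′ end of *Mip*, had 172 to 218 counts in Ctrl and 35 to 81 in *Qk*-iCKO. Before scaling, *Mip* had 118428 to 173354 counts in Ctrl and 30917 to 51267 in *Qk*-iCKO. In WT NLPCs *Gm26847* had 72 to 118 counts and *Mip* 0 to 2. Whether the counting used the strand is not given in the sources used here, so reads where the genes overlap cannot be told apart.

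*Aqp5* had 829, 687 and 725 normalized read counts in Ctrl and 315, 281 and 280 in *Qk*-iCKO. The *Qk*-iCKO values were all under the lowest Ctrl value, and their closeness rests on the TMM factor of *Qk*-iCKO replicate 1. In CPM they were 36.6, 20.3 and 21.2, against 50.8 to 58.9 in Ctrl. The *Qk*-iCKO lens at 36.6 CPM was replicate 1, the one with *Xist* counts, and the part of sex was not tested. The log2 fold change was −1.35 (SE 0.14, adjusted p = 0.001596), or 0.391 of Ctrl, and leaving out any library kept it between −1.29 and −1.42 with an adjusted p of at most 0.01405. With scaling to total counts alone it was −1.05, just inside the threshold (edgeR adjusted p = 0.04836). An exact permutation test (two-sided) gave 0.1 for *Mip* and for *Aqp5*, which is the smallest p that 3 against 3 allows.

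*Gja3*, the fiber connexin, had 6661, 6356 and 7292 normalized read counts in Ctrl and 3039, 4915 and 5343 in *Qk*-iCKO. The groups did not overlap, but the difference did not pass the adjusted threshold (−0.61, SE 0.24, edgeR adjusted p = 0.139), and it did with DESeq2 (adjusted p = 0.04978). With *Mip* and *Aqp5*, 3 of 8 genes had all *Qk*-iCKO libraries under all Ctrl libraries, as did 17.1% of the genes tested. *Gja1*, the epithelial connexin, had 736, 638 and 448 in Ctrl and 877, 550 and 350 in *Qk*-iCKO. These ranges overlapped wholly (−0.032, SE 0.34), and with scaling to total counts the estimate was 0.35.

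The beaded filament genes and *Lgsn* differed among the *Qk*-iCKO lenses more than between groups. *Bfsp1* had 118471, 103108 and 104625 normalized read counts in Ctrl and 51784, 96928 and 103589 in *Qk*-iCKO (−0.37, SE 0.31, adjusted p = 0.4807). *Bfsp2* had 83798, 78941 and 84908 in Ctrl and 44827, 99470 and 47142 in *Qk*-iCKO (−0.37, SE 0.35, adjusted p = 0.5283). For *Bfsp2* 1 *Qk*-iCKO library was above all Ctrl libraries and the other two were well under them. *Lgsn* had 83043 to 104163 in Ctrl and 41299, 111314 and 92873 in *Qk*-iCKO (−0.17, SE 0.37), and *Dnase2b* had 3084 to 3801 in Ctrl and 2336, 4575 and 4111 in *Qk*-iCKO (0.13, SE 0.26). In *Bfsp1*, *Bfsp2*, *Lgsn* and *Dnase2b* alike, *Qk*-iCKO replicate 1 was the lowest of the 6 libraries in normalized read counts, which rests on its TMM factor for *Bfsp2* and *Dnase2b*. In CPM, *Bfsp2* was lowest in *Qk*-iCKO replicate 3 (3575 against 5212 in replicate 1), and *Dnase2b* in *Qk*-iCKO replicate 1 (272) was above all Ctrl libraries (226 to 266). Without *Qk*-iCKO replicate 1 *Lgsn* turned to 0.14. A drop of fiber transcripts in whole lens cannot be told apart from fewer fiber cells or less RNA per fiber.

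**Figure D2:**
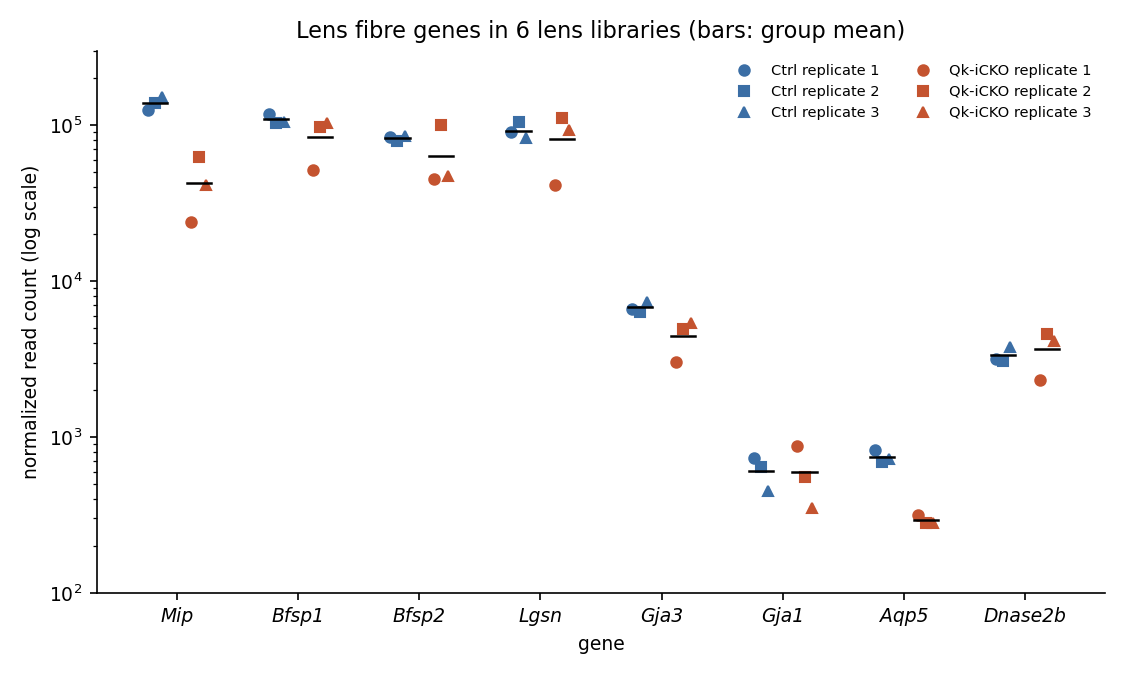
Normalized read counts (log axis) of 8 genes in the 3 Ctrl and 3 *Qk*-iCKO lens libraries, with 1 symbol per replicate and black bars at the group means; *Lim2*, with 1 count in all, is not drawn. *Mip*, *Gja3* and *Aqp5* had all *Qk*-iCKO points under all Ctrl points, and the *Qk*-iCKO points of *Bfsp1*, *Bfsp2*, *Lgsn* and *Dnase2b* were spread widely, with replicate 1 lowest on this TMM scale.

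Ratios of 2 genes in the same library need no scaling factor. The ratio of *Dnase2b* to *Mip* was 0.0256, 0.0222 and 0.0252 in Ctrl and 0.0973, 0.0728 and 0.1 in *Qk*-iCKO. The groups were far apart, at 1.88 on the log2 scale with SDs of 0.11 and 0.25, and leaving out any library kept it between 1.79 and 2.02. In contrast, the ratio of *Bfsp1* to *Bfsp2*, the partners of the beaded filament, was 1.23 to 1.41 in Ctrl and 1.16, 0.974 and 2.20 in *Qk*-iCKO, a mean difference of 0.040. *Mip* to *Aqp5* overlapped between the groups (150 to 208 in Ctrl and 76.3 to 224 in *Qk*-iCKO), and so did *Gja3* to *Gja1* (9.05 to 16.3 and 3.47 to 15.3). The 9 genes together, set against the 16 crystallins, went from 0.0466 to 0.0509 in Ctrl to 0.0342 to 0.0412 in *Qk*-iCKO. *Mip* made this difference: without it, an alternative chosen after seeing the data, the ratio was 0.0306 to 0.0347 in Ctrl and 0.0295 to 0.0344 in *Qk*-iCKO, which overlap (−0.070 on the log2 scale against −0.39 with it). The same sum against crystallins went the other way in the NLPCs, from 0.106 to 0.118 in WT to 0.280 to 0.505 in the libraries labelled *Qk-/-* (1.69), where *Cryab* fell, and in HLE-B3 it went from 0.215 to 0.258 in WT to 0.176 to 0.208 in *QKI* KO (−0.35), where *CRYAB* rose. Of the 8 ratios computed over the systems, with all members in the sums, 5 did not overlap, each with an exact permutation p of 0.1 and an adjusted p of 0.16.

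**Figure D3:**
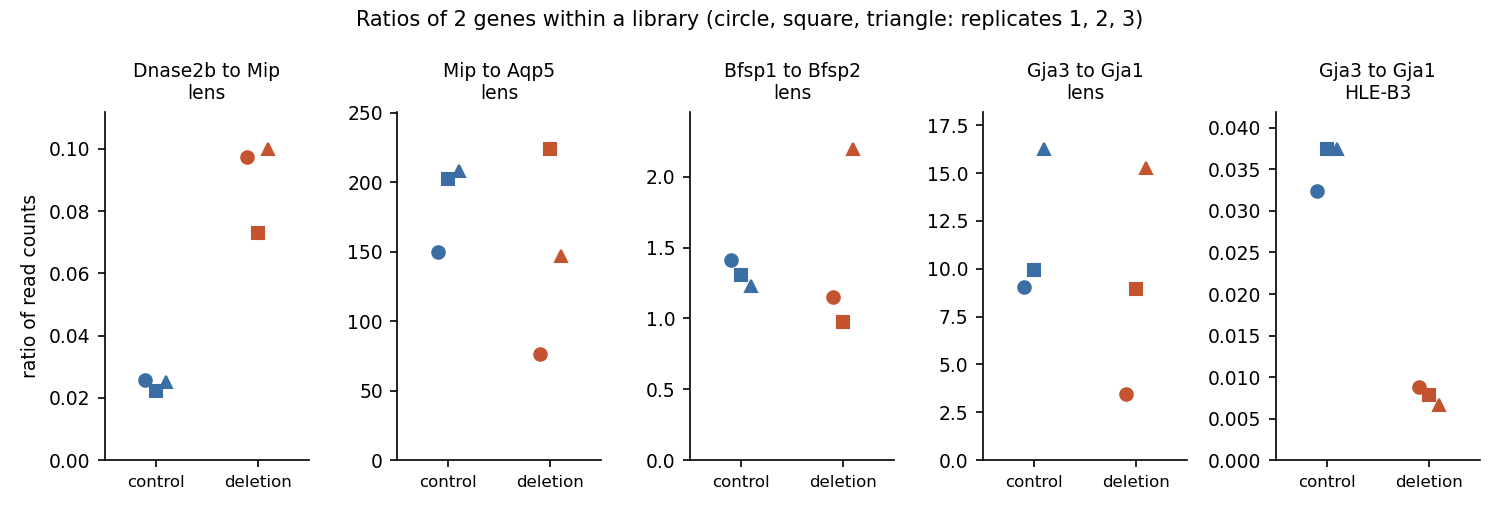
Ratios of the read counts of 2 genes within each library (linear axes from 0) for 4 pairs in the lens and for *GJA3* to *GJA1* in HLE-B3, controls at left and deletion at right in each panel, with 1 symbol per replicate. *Dnase2b* to *Mip* in the lens and *GJA3* to *GJA1* in HLE-B3 separate the groups, and the other 3 pairs overlap.

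Markers of other cells moved in the same lenses. Of 10 leukocyte and macrophage markers, 8 were tested and all 8 were higher in *Qk*-iCKO, where 8.38% of all genes tested were. *Ptprc*, *Cd68*, *C1qa*, *C1qb*, *Lyz2*, *Tyrobp* and *Itgam* had Ctrl means of 0.639 to 6.68 normalized read counts. They passed the low-count filter through the *Qk*-iCKO group, so a call of these could only be higher. The summed level of the 10 was about 1.86 to 4.2 CPM in Ctrl and 120 to 166 CPM in *Qk*-iCKO. *Aif1* had no count in Ctrl, and 0 of the 10 were at 0 in all 6 libraries. The 10 lens epithelial markers summed to 4156 to 4591 CPM in Ctrl and 3008 to 4617 in *Qk*-iCKO, the 7 pigmented iris and ciliary body markers to 8.34 to 11.5 and 9.21 to 216, the 8 retinal markers to 1.83 to 553 and 13.8 to 127, the 7 fibroblast markers to 17.5 to 39.2 and 60.6 to 238, and the 5 blood vessel markers to 3.58 to 6.51 and 10.5 to 33.2. Of 4 blood vessel markers tested, 2 were higher, *Pecam1* and *Tek*. *Pecam1*, with a Ctrl mean of 8.84, also passed the filter through the *Qk*-iCKO group. Of the 16 crystallins, 0 were called in either direction at the adjusted threshold, and 1 was lower at an unadjusted p under 0.05 (edgeR). The part of other cells in the changes of *Mip* and *Aqp5* was not tested.

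Among other fiber genes, several that hold the membrane to its skeleton fell together with *Mip*. Of 55 such genes in 3 lists, 54 were tested, 9 were lower and 2 higher, with a median log2 fold change of −0.17. The shares of all genes tested were 3.88% lower and 8.38% higher. These lists were chosen with earlier results of these data known. In the membrane skeleton and filament list 5 of 17 were lower and 0 higher, with a median of −0.31. At an unadjusted p under 0.05 (edgeR), 8 of these 17 were lower and 4 higher. *Prx* (periaxin, a scaffold protein of fiber membranes) fell from 1656 to 380 normalized read counts (−2.12, adjusted p = 0.0005542), and the spectrins *Sptan1* (−1.22) and *Sptbn1* (−1.25), *Ppl* (periplakin, −1.02) and *Epb41* (protein 4.1, −0.94) fell by less. In the membrane, junction and adhesion list 3 of 18 were lower and 1 higher: *Ctnna2* (a catenin, −1.99), *Nrcam* (a cell adhesion molecule, −1.07) and *Jam3* (−0.81) fell, and *Tmem114* rose from a mean of 5.61 to 42.1 (2.90). *Tmem114* passed the low-count filter through the *Qk*-iCKO group, so its call could only be higher. In the differentiation and organelle loss list 1 of 19 was lower, *Cdkn1c* (a cell cycle inhibitor of early fibers, −0.99), and 1 higher, *Lmna* (lamin A, 1.96). The calls in the 3 lists numbered 11 and ranged from 6 to 14 with 1 library left out, being 6 without Ctrl replicate 1 and 6 without Ctrl replicate 3.

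**Figure D4:**
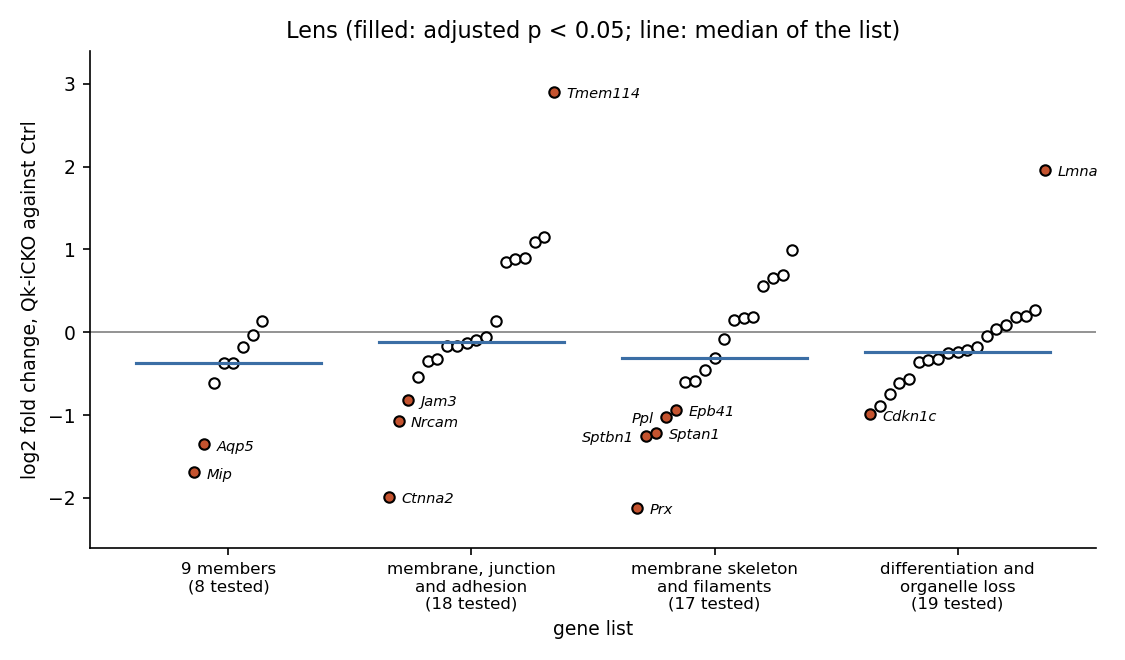
Log2 fold changes of *Qk*-iCKO against Ctrl lens for the 8 tested genes of the 9 and for 3 lists of other fiber genes, 1 point per gene, filled and named where the adjusted p was under 0.05, with a line at the median of each list. The medians were −0.37, −0.11, −0.31 and −0.24, and 11 of the 54 other fiber genes were called, where 3.88% of all genes tested were lower and 8.38% higher.

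Within their own families the 9 genes were set beside relatives. Of 7 aquaporins tested in the lens 2 were lower, *Mip* and *Aqp5*, and 1 higher, *Aqp8*, from a mean of 3.63 to 42.7 (3.57). Over all genes tested there, 3.88% were lower and 8.38% higher. Of 3 DNases tested, *Dnase2a*, the lysosomal DNase of most cells, was higher, from 9.73 to 39.2 (2.01), while *Dnase2b* was not called. *Aqp8* and *Dnase2a* passed the low-count filter through the *Qk*-iCKO group, so their calls could only be higher. The genes whose profile over the 6 lens libraries came nearest to the mean of the 8 members, among 5351 genes with at least 10 CPM, were *Rcn1*, *Mief2*, *Zfp191*, *Crybb2* and *Trmt1l*, with root mean square differences of 0.0616 to 0.0769 on the log2 scale. In that mean the *Qk*-iCKO libraries lay at −0.996, −0.28 and −0.60 relative to Ctrl.

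In the NLPCs 4 of the 9 genes passed the low-count filter, *Bfsp2*, *Gja1*, *Lim2* and *Aqp5*, all at low counts, and 0 were called at the adjusted threshold (edgeR), where 5.96% of the 20371 genes tested were lower and 4.74% higher. At an unadjusted p under 0.05 there were 2, *Bfsp2* lower and *Gja1* higher, and DESeq2 called both. *Bfsp2* had 64.3, 93.0 and 107 normalized read counts in WT and 29.7, 1.77 and 11.3 in the libraries labelled *Qk-/-* (−2.57, SE 0.83, edgeR adjusted p = 0.09085). *Gja1* had 67.4, 63.6 and 65.5 in WT and 130, 124 and 143 in those labelled *Qk-/-* (1.01, SE 0.31, adjusted p = 0.07922). Neither overlapped between groups, as was so for 35.2% of the genes tested. Without *Qk-/-* replicate 2, the shallowest library of the system, both passed the threshold (adjusted p = 0.01744 for *Bfsp2* and 0.02451 for *Gja1*).

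*Lim2*, uncounted in the lens table, had 6, 9 and 0 raw counts in WT NLPCs and 22, 56 and 11 in those labelled *Qk-/-* (3.06, SE 1.42, adjusted p = 0.2148). It passed the filter only through the *Qk-/-* group, where most counts came from replicate 2. *Aqp5* had 197, 228 and 210 normalized read counts in WT and 253, 124 and 331 in those labelled *Qk-/-*, with no common direction (0.17, SE 0.34). *Mip*, *Bfsp1*, *Gja3*, *Lgsn* and *Dnase2b* had 0 to 12 counts in each NLPC library and were not tested. In the 3 wider lists, 8 genes were higher and 5 lower of 48 tested (median 0.14, all genes 0.040). Over all genes tested in the NLPCs, 4.74% were higher and 5.96% lower. The largest among the genes called, per list and direction, were *Ncam1* (0.69) and *Jam3* (−0.59) for adhesion, *Tmod1* (1.58) and *Add1* (−0.42) for the membrane skeleton, and *Maf* (1.42) and *Tdrd7* (−0.76) for differentiation. In the families *Gjc1* (−0.97) and *Gjc3* (−1.27), *Aqp4* (0.74) and *Dnase2a* (−0.76) were called. The 13 calls of the 3 lists became 22 without *Qk-/-* replicate 2, 10 without replicate 3, and 4 or 5 without any other library. In the same libraries 7 astrocyte markers summed to 5744 to 6423 CPM in WT and 3731 to 4374 CPM in those labelled *Qk-/-*, and 7 neuronal markers to 1195 to 1337 and 1632 to 1700 CPM; their part in these changes was not tested.

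The effects in lens and NLPC were compared directly for *Bfsp2*, *Gja1* and *Aqp5*, the genes tested in both. The *Aqp5* effect was lower in the lens than in the NLPCs by 1.61 on the log2 scale (lens minus NLPC −1.61, SE 0.32, adjusted p = 0.005824 from edgeR), where 13.1% of 11217 genes had a difference past the threshold. *Bfsp2* (2.02, SE 0.67, adjusted p = 0.06717) and *Gja1* (−1.14, SE 0.40, adjusted p = 0.08276) did not pass. With the replicate numbers as a block, *Gja1* passed as well (−1.21, adjusted p = 0.006173), which made 2 of 3. Without *Qk*-iCKO replicate 1 all 3 passed, and without *Qk-/-* replicate 1 *Aqp5* and *Bfsp2* did. When libraries were scaled to their totals only, *Aqp5* missed the threshold (−1.26, adjusted p = 0.08692) and *Bfsp2* passed it (2.29, adjusted p = 0.04355).

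In HLE-B3, 3 of the 9 genes were tested, and the connexins moved in opposite directions. *GJA1* (chr6:121756741-121770873, plus strand, GRCh37) rose and *GJA3* (chr13:20712394-20735191, minus strand) fell in *QKI* KO cells, where 17.0% of the 19049 genes tested were higher and 16.3% lower, so calls were common in this system. *GJA1* had 10082, 8413 and 8809 normalized read counts in WT and 13157, 13227 and 13075 in *QKI* KO (0.53, SE 0.066, adjusted p = 9.466e-06). *GJA3* had 326, 315 and 330 in WT and 115, 103 and 87.4 in *QKI* KO (−1.66, SE 0.21, adjusted p = 9.488e-06), or 0.316 of WT. The groups of both genes were apart, as were those of 44.6% of the genes tested. The ratio of *GJA3* to *GJA1* within a library went from 0.0323, 0.0374 and 0.0375 in WT to 0.00877, 0.00781 and 0.00668 in *QKI* KO, a log2 difference of −2.21. The 50 tested genes nearest to *GJA3* on chromosome 13 had a median of −0.19, and less that median *GJA3* was at −1.48. For *GJA1* on chromosome 6 the values were −0.060 and 0.59. The medians of the whole chromosomes were −0.30 over 371 tested genes for chromosome 13 and 0.016 over 1017 for chromosome 6. *BFSP1* was uneven between libraries of 1 group, with 86.5, 33.3 and 26.7 in WT and 122, 72.4 and 23.1 in *QKI* KO (0.57, SE 0.56, adjusted p = 0.4947). *MIP*, *BFSP2*, *LIM2*, *LGSN*, *AQP5* and *DNASE2B* had 0 to 8 counts per library and were not tested.

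**Figure D5:**
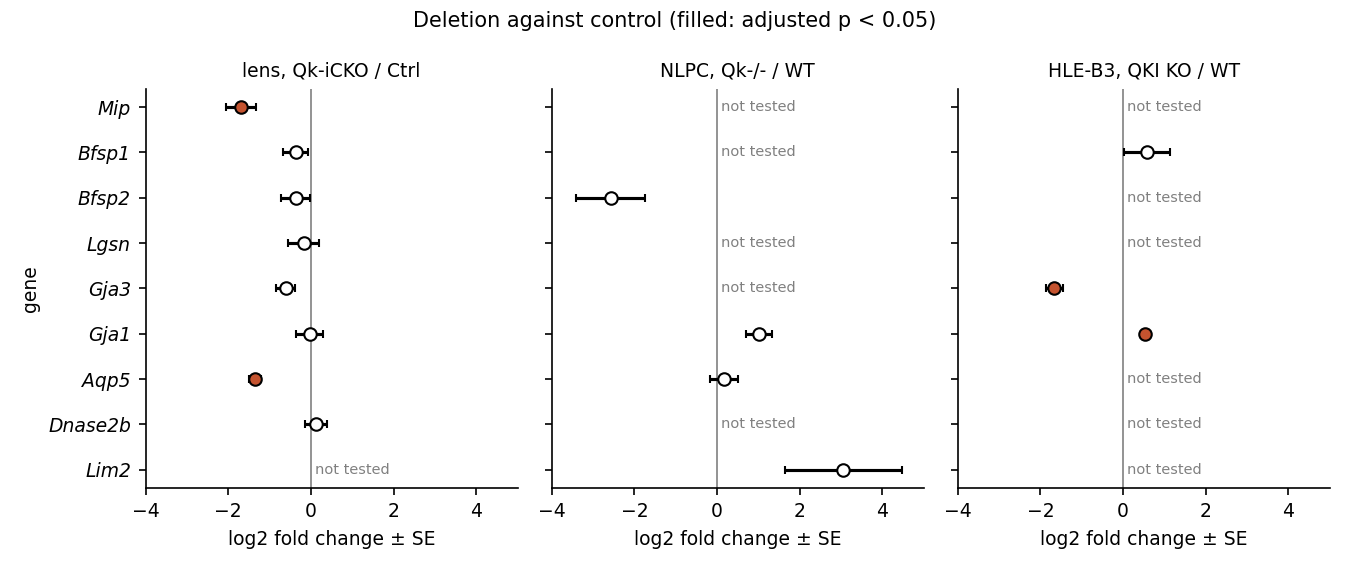
Log2 fold changes with standard errors of the 9 genes, deletion against control, in the lens, the NLPCs and HLE-B3, filled where the adjusted p was under 0.05. *Mip* (−1.69) and *Aqp5* (−1.35) were called in the lens and *GJA3* (−1.66) and *GJA1* (0.53) in HLE-B3, 0 genes were called in the NLPCs, and 12 of the 27 gene and system pairs were too low to test.

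The wider fiber lists went both ways in HLE-B3, with 15 genes higher and 15 lower of 46 tested and a median of 0.0054 against −0.020 over all genes. Over all genes tested, 17.0% were higher and 16.3% lower. The largest among the genes called, per list and direction, were *CADM1* (1.32) and *NCAM1* (−3.71) for adhesion, *EZR* (ezrin, 1.06) and *TMOD1* (−1.60) for the membrane skeleton, and *PLA2G16* (0.70) and *MAF* (a fiber transcription factor, −4.29) for differentiation. Among 7 connexins tested *GJA5* (2.66) and *GJC1* (0.24) also rose and *GJB2* (−3.22) also fell, of 3 aquaporins *AQP3* fell (−1.27), and of 5 DNases 0 were called (edgeR), with 1 at an unadjusted p under 0.05.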

How the data were processed

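Total RNA of lenses, NLPCs and HLE-B3 cells was made into stranded libraries, and the authors deposited raw read counts per gene in 1 table for each system. The study's methods name STAR 2.6.1b on mm10 and hg19 and HTSeq 0.11.0 for the counts; the submitters' processing notes also list HISAT2 2.0.4 and featureCounts with no role given, and the lens table lists symbols under a header unlike the others. The annotation release is not given in the sources used here.

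Each system was fitted alone with edgeR 4.0.16 (R 4.3.3): filterByExpr (minimum count 10), TMM, quasi-likelihood test, Benjamini-Hochberg over all genes tested, threshold 0.05. The study used DESeq2; DESeq2 1.42.0 was the alternative. Normalized read counts are counts scaled by library size and TMM factor. Log2 values of single libraries used a prior count of 2. Levels used merged exon lengths of GENCODE M21 and v44lift37. The scripts were tested on simulated data. All 9 members are named; of other lists, genes past the threshold, and in the lens the 5 nearest profiles. The members and lists were chosen with earlier results of these data known. Deviations of same-numbered libraries had r of 0.23, 0.13 and 0.52 in the lens, 0.12, 0.32 and 0.15 in the NLPCs and 0.061, 0.057 and −0.049 in HLE-B3. For lens replicate 2, NLPC replicate 1 and HLE-B3 replicates 1 and 3 the best match was a library of another number. Pairing by number is therefore not established. The number was used as a block in an alternative fit only. The study's reporting summary gives independent biological replicates for animal and cell line work, without naming these libraries. The labels do not say whether libraries of the cultures came from separate cultures, so those p-values may measure technical spread. The connexin family in the lens, other than *Gja1* and *Gja3*, is not reported here.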

Additional observations from a re-analysis of the deposited data

Results flagged for a closer look

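One result was marked for a closer look: the effect of deletion on *Aqp5* differed between lens and NLPC by −1.61 on the log2 scale (SE 0.32, edgeR adjusted p = 0.005824, interaction of deletion and system). In the lens, the 3 *Qk*-iCKO values were all under the lowest Ctrl value, and in the NLPC libraries labelled *Qk-/-* the values were above all WT values in 2 of 3 and below them in 1. Leaving out any library kept the difference between −1.33 and −1.86. System and count table cannot be told apart here.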

How the results depend on the processing

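With 3 libraries a group, leaving out 1 library lowered or raised the number of calls in the lens and NLPCs. In the lens the members called numbered 2 in all fits but DESeq2 (3) and ranged from 1 to 2 with a library left out; the other fiber genes called (11) were 7 with total counts alone, where the median of all genes shifted to 0.29, 18 with DESeq2 and 6 to 14 with a library left out. *Gja1* turned to 0.35 with total counts alone and ranged from −0.43 to 0.24 with a library left out, *Lgsn* from −0.46 to 0.14 and *Dnase2b* from −0.062 to 0.37. In the NLPCs the members called (0) were 1 with every gene of at least 1 count (*Bfsp2*), 1 with at least 10 counts in every sample (*Gja1*), 2 with DESeq2 and 0 to 2 with a library left out, 2 being without *Qk-/-* replicate 2; the other fiber genes (13) were 21 with DESeq2 and 4 to 22 with a library left out, and *Aqp5* ranged from −0.17 to 0.47. In HLE-B3 both calls held in all fits, and *BFSP1* ranged from −0.036 to 1.29 with a library left out. Lens minus NLPC calls (1) were 3 with DESeq2, 2 with the replicate block and 1 to 3 with a library left out; the block changed no other call of a member. Of the 8 members called between Ctrl lens and WT NLPC, 3 remained testable with 10 counts in every sample, because the other 5 are near 0 in the NLPCs. Without lengths *Bfsp1* (7848 CPM) ranked above *Lgsn* (6692) and *Bfsp2* (5957). The causes were not tested otherwise. Counts near 0 set the limit in both cultures: a lens level of these genes would have been seen there, a small change would not.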
